A study of Mus musculus with 19 samples.

Results

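GADD45 and p53 response genes were examined as a set of 10 genes, chosen by name from the platform's gene annotation: Gadd45a, Gadd45b, Gadd45g, Cdkn1a, Mdm2, Ccng1, Btg2, Trp53inp1, Plk2 and Plk3. They are 10 of the 18193 genes that the array measured with a probe set assigned to a single symbol, and all 10 were among the 8515 genes tested, which had a level over log2 4 on at least 4 of the 19 arrays. Where a gene had several probe sets, the one with the highest mean over the 19 arrays was used and the others served as a check. The samples were livers of male C57BL/6 mice aged 10 to 12 weeks and killed 2 hours after 85% of the liver had been resected, so every group shared the operation and no unoperated liver was analysed here. There were 4 livers null for both Ager and Myd88 (MRKO), 6 null for Ager alone (RKO), 4 null for Myd88 alone (MKO) and 5 wild-type livers (WT). Ager encodes the receptor for advanced glycation end products, RAGE, and Myd88 encodes the adaptor used by most Toll-like receptors and by the interleukin-1 receptor. The comparisons address whether the level of these genes in the liver remnant differed with loss of RAGE, of Myd88 or of both.

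The p53 protein is a transcription factor that is stabilised by DNA damage and other stresses and then raises genes that halt the cell cycle, repair DNA or lead to cell death. The GADD45 proteins are small stress sensors that bind the kinase Map3k4 upstream of p38 and JNK and also take part in DNA repair, and their genes respond to p53, to NF-kB and to other stress factors. After partial hepatectomy several genes of this kind are induced early, while hepatocytes leave quiescence, and Cdkn1a, which encodes the cyclin-dependent kinase inhibitor p21, restrains their entry into DNA synthesis.

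The level of Myd88 separated the genotypes as labelled. It averaged 3.45 ± 0.58 in MRKO livers (SD, n = 4), 5.91 ± 0.38 in RKO livers (n = 6), 3.49 ± 0.34 in MKO livers (n = 4) and 5.55 ± 0.29 in WT livers (n = 5), all on the log2 scale. Both Ager probe sets were under log2 4 on every array and therefore checked nothing. Each of the 8 hepatocyte markers measured exceeded log2 4 throughout. Of 9 kidney and glomerulus markers, listed because the extraction text of the labels speaks of glomeruli, 8 were over it on no array and none was over it on all. The fourth MKO array stood apart, with a median correlation to the other arrays of 0.965 against at least 0.979 for the others. The sample descriptions carry a number written after the letter S, whose meaning is not stated, and it followed genotype: S 13 to 20 held all 6 RKO arrays with 1 MKO and 1 WT array, and the 4 MRKO arrays lay in S 1 to 12 with no RKO array. For MRKO against RKO, genotype and S range therefore cannot be told apart within any range. In whole tissue, fewer cells of a type and less RNA per cell cannot be told apart either.

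The promoters of Gadd45a, Btg2 and Cdkn1a are shown because, of all pairs of members, Gadd45a with Btg2 and Gadd45a with Cdkn1a had the highest correlations from liver to liver, as described further on. The sequences are RefSeq windows of build GRCm38.p6, from 250 bases before to 50 bases after an annotated start, written 5′ to 3′ on the gene's strand. Capitals mark matches, on either strand, to the cyclic AMP response element TGACGTCA, to the CCAAT box CCAAT and to the p53 decamer. No match overlaps another.
Gadd45a: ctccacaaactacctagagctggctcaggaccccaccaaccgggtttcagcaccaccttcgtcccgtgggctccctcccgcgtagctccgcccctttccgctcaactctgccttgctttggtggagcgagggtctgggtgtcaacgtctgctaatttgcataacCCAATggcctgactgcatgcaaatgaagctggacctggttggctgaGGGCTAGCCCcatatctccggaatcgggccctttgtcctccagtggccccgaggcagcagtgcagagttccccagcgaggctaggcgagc
Btg2: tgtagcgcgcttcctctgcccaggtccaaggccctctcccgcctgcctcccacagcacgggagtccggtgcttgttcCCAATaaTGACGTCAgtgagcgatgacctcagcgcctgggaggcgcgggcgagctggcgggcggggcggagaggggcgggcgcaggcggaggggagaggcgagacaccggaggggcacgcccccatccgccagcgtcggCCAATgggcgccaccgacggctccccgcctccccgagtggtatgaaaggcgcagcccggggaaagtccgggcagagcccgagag
Cdkn1a: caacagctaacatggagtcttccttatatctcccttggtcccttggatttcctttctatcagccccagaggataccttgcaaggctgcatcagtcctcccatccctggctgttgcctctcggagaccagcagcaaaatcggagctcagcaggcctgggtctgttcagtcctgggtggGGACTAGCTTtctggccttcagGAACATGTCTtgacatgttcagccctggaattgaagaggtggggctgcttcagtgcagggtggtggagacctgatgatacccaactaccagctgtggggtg

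The Gadd45a window lies at chr6:67037358-67037657 on the minus strand, with a CCAAT box whose first base is at -86 and a p53 decamer at -40 from the start. The Btg2 window, chr1:134079106-134079405 on the minus strand, held the cyclic AMP response element at -166 and CCAAT boxes at -173 and -34, and no p53 decamer. The Cdkn1a window, chr17:29090729-29091028 on the plus strand, held p53 decamers at -73 and -51 and neither of the other motifs. RefSeq gives Cdkn1a a second start with the window chr17:29093519-29093818, where none of the 3 motifs was found. Windows were given for 9 of the 10 genes, all but Trp53inp1. Among those 9, the p53 decamer was found in 4 (Gadd45a, Cdkn1a, Mdm2 and Ccng1), the CCAAT box in 6 and the cyclic AMP response element in 2 (Btg2 and Plk2). Of all 32851 promoter windows in the table, 8.36% held the decamer, 37.4% the CCAAT box and 1.79% the cyclic AMP response element. A match describes the letters of the window and does not show that a factor binds there. Cdkn1a is the only one of the 10 genes on a chromosome that carries a deleted gene: it shares chromosome 17 with Ager, with 125 annotated protein-coding genes between them.

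None of the 10 genes passed the test in any comparison of genotypes, at an adjusted p under 0.05 in limma with Benjamini-Hochberg adjustment over all 8515 genes. The smallest adjusted p of a member in each comparison was between 0.104 and 0.585. The plot of the levels shows the 10 genes on each array, and the plot of the differences shows how wide the intervals were.

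**Figure D1:**
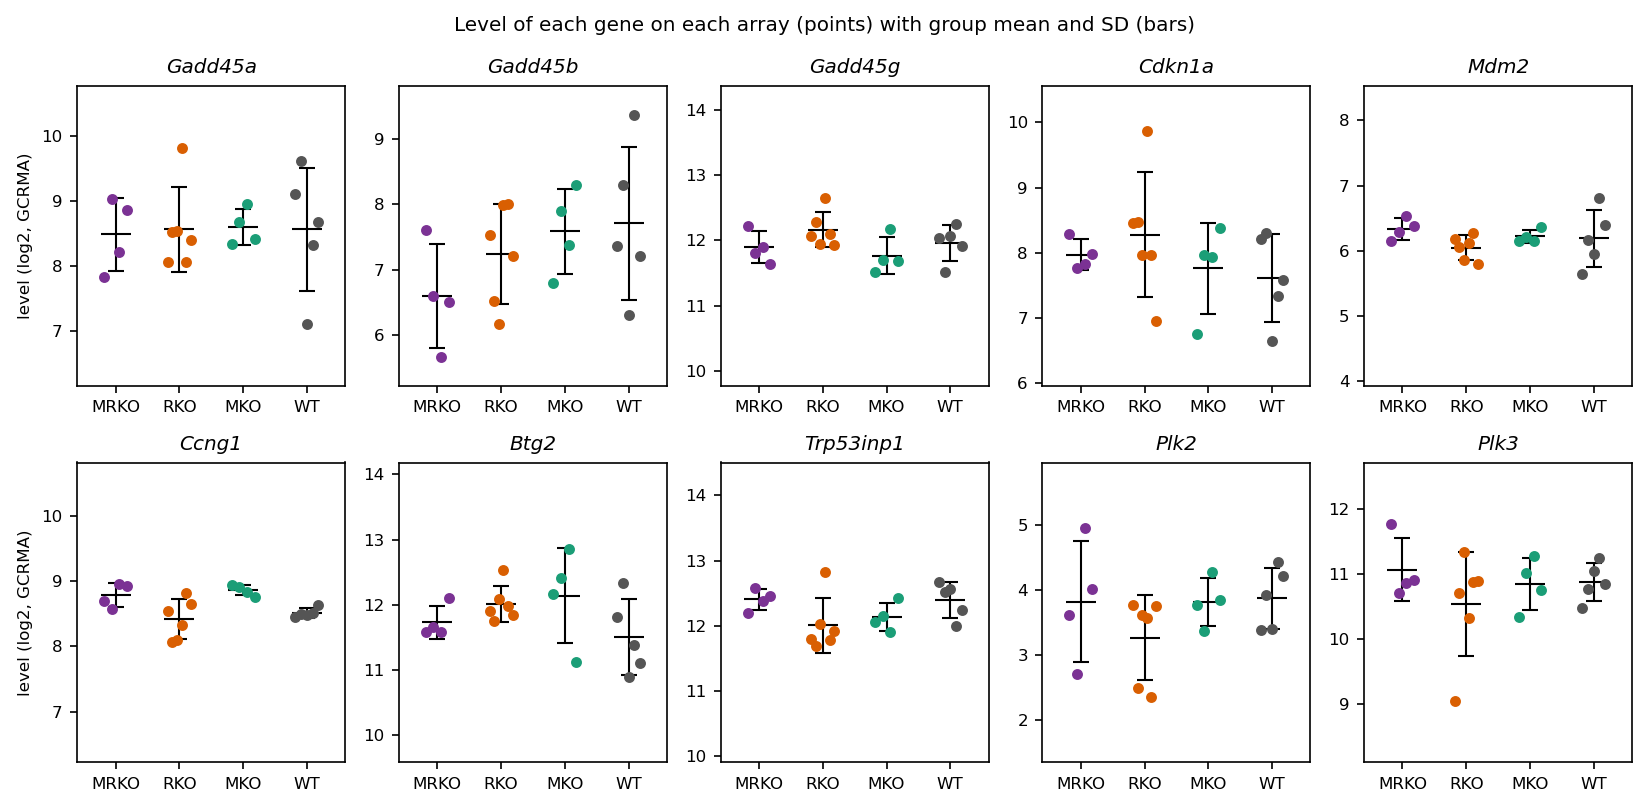
Level of each of the 10 genes (log2, vertical axis, the same span in each panel) on each array, by group; bars are the mean and SD. The only pair of groups that do not overlap is MKO and WT for Ccng1, while the spread inside a group is wide for Gadd45b, Cdkn1a and Gadd45a and narrow for Ccng1.

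The counts of members are set here against the share of all 8515 genes that met the same rule. In RKO against WT 0 of 10 genes were called at an adjusted p under 0.05, against 1.26% of all genes, 1 (Trp53inp1) had an unadjusted p under 0.05, against 21.6%, and 0 had groups that did not overlap, against 3.7%. In MKO against WT the counts were 0, against 0.399%, then 2 (Ccng1 and Btg2), against 19.6%, and 1 (Ccng1), against 4.52%. In MRKO against WT they were 0 by each rule, against 0.317%, 8.57% and 3.81% of all genes. In MRKO against RKO they were 0, against 2.44%, then 2 (Ccng1 and Trp53inp1), against 22.7%, and 0, against 8.39%. In MRKO against MKO they were 0 by each rule, against 0.153%, 16.1% and 5.91%. In RKO against MKO they were 0, against 1.26%, then 2 (Ccng1 and Gadd45g), against 15.9%, and 0, against 3.92%. For the interaction, that is the difference between MRKO and RKO minus the difference between MKO and WT, 0 members were called, against 2.41%, and 2 (Btg2 and Trp53inp1) had an unadjusted p under 0.05, against 27.2%. Over all 4 genotypes 0 were called, against 2.4%, and 1 (Ccng1) had an unadjusted p under 0.05, against 26%. These comparisons share groups and are not independent of each other. The median log2 difference of the 10 members was -0.12 in RKO against WT, 0.00 in MKO against WT and 0.08 in MRKO against WT, beside 0.02, 0.06 and 0.07 over all tested genes.

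Gadd45a, the family member best known as a p53 target, had nearly the same mean in all genotypes. Its level was 7.84, 9.03, 8.21 and 8.86 in the 4 MRKO livers. The 6 RKO livers had a lowest level of 8.06, a median of 8.46 and a highest of 9.81. The MKO livers had 8.34, 8.67, 8.94 and 8.41, and the WT livers had 9.10, 9.60, 7.11, 8.32 and 8.67. The WT group alone spanned nearly the whole range, from WT 3, the lowest of the 19 arrays, to WT 2, exceeded only by RKO 4. The differences of the deletion genotypes from WT lay between -0.08 and 0.03, with 95% intervals within -0.95 and 0.90. With these numbers of livers, differences as large as those bounds were not excluded.

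Gadd45b, which in liver is induced through NF-kB and limits JNK signalling during regeneration, had the widest spread. Its level was 7.61, 6.60, 5.66 and 6.50 in MRKO livers. The RKO livers had a lowest level of 6.16, a median of 7.37 and a highest of 8.01. It was 6.80, 7.89, 7.38 and 8.30 in MKO livers and 7.36, 8.29, 6.30, 9.37 and 7.21 in WT livers. The lowest value was in MRKO and the highest in WT, but the groups overlapped. The difference was -1.11 ± 0.54 (SE) for MRKO against WT (adjusted p = 0.585, limma) and -0.996 ± 0.57 for MRKO against MKO (adjusted p = 0.374, limma). Without WT 4 the difference of Gadd45b between MRKO and WT was -0.70 (adjusted p = 0.852, limma). A second probe set of Gadd45b followed the first with a correlation of 0.96 over the 19 arrays and gave -1.09 and -1.08 for the same differences. Within the S ranges that hold both genotypes, MRKO was below WT by a log2 difference of -0.72 in S 1 to 6 and -1.75 in S 7 to 12. MRKO differed from MKO by -0.24 in S 1 to 6 and by -1.29 in S 7 to 12, where MKO had a single array. The summed level of the 2 erythroid markers on the array, 1 of which was under log2 4 throughout, was 10.7 to 10.8 in MRKO, 10.2 to 10.9 in RKO, 10.7 to 11.1 in MKO and 10.3 to 10.9 in WT livers. It correlated with Gadd45b at -0.65 after group means were subtracted (n = 19 arrays), among the largest correlations of any marker list with a member. With the mean log2 level of the 2 markers in its place the correlation was -0.36. The part of these markers in the Gadd45b values was not tested.

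Gadd45g, the remaining stress sensor of the family, averaged 11.89 ± 0.25 in MRKO livers (SD, n = 4), 12.16 ± 0.27 in RKO livers (n = 6), 11.77 ± 0.28 in MKO livers (n = 4) and 11.96 ± 0.28 in WT livers (n = 5). RKO against MKO gave its largest difference, 0.39 ± 0.17 (SE), which did not pass the test (adjusted p = 0.264, limma). In S 13 to 20 the difference between the 6 RKO arrays and the single MKO array was 0.47.

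Ccng1, which encodes the p53-induced cyclin G1, had the largest F statistic of the 10 genes over the 4 genotypes (F = 4.98, adjusted p = 0.104, limma), and it varied least within groups. Its level was 8.69, 8.57, 8.96 and 8.92 in MRKO livers. The RKO livers had a lowest level of 8.07, a median of 8.44 and a highest of 8.82. It was 8.94, 8.91, 8.84 and 8.76 in MKO livers and 8.45, 8.49, 8.47, 8.51 and 8.64 in WT livers. Both genotypes null for Myd88 were on the high side, and every MKO liver was above every WT liver. MKO exceeded WT by 0.35 ± 0.14 (SE; adjusted p = 0.187, limma), MRKO exceeded RKO by 0.37 ± 0.13 (adjusted p = 0.128, limma), and RKO differed from MKO by -0.44 ± 0.13 (adjusted p = 0.104, limma). With array weights the last difference was -0.52 and passed the test (adjusted p = 0.0242, limma). The MKO livers exceeded the WT livers by 0.45 in S 1 to 6, by 0.35 in S 7 to 12 and by 0.12 in S 13 to 20. The other 2 probe sets of Ccng1 followed the first only loosely, with correlations of 0.65 and 0.43, and their differences between MKO and WT were 0.20 and -0.09, so the direction against WT depended on the probe set. For MRKO against RKO they gave 0.40 and 0.32, the same direction as the first. For RKO against MKO, Ccng1 differed by -0.36 (adjusted p = 0.378, limma) and -0.14 (adjusted p = 0.734, limma) with these probe sets.

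Btg2, an antiproliferative p53 target that recruits the deadenylase complex to messenger RNA, had its highest mean in MKO livers and its lowest in WT livers. Its level was 11.58, 11.66, 11.59 and 12.11 in MRKO livers. The RKO livers had a lowest level of 11.75, a median of 11.94 and a highest of 12.53. It was 12.17, 12.42, 12.85 and 11.13 in MKO livers and 11.81, 12.33, 10.89, 11.38 and 11.11 in WT livers. MKO 3 was the highest of the 19 arrays while MKO 4 was among the lowest, and the groups overlapped. The difference from WT was 0.51 ± 0.27 in RKO (SE; adjusted p = 0.287, limma) and 0.64 ± 0.30 in MKO (adjusted p = 0.254, limma), against 0.23 ± 0.30 in MRKO. The interaction was -0.92 ± 0.42 (adjusted p = 0.170, limma). The difference of Btg2 between MKO and WT was 0.97 without MKO 4 (adjusted p = 0.194, limma) and 0.40 without MKO 3 (adjusted p = 0.537, limma), and that between MRKO and WT ran from 0.07 without WT 3 to 0.43 without WT 2. A second probe set, with a correlation of 0.79, gave 0.92 for MKO against WT and -1.34 for the interaction (adjusted p = 0.0975 and 0.0562, limma). With S range entered as a block, RKO against WT was 1.23 (adjusted p = 0.0997, limma) and the interaction -1.84 (adjusted p = 0.142, limma). MKO and WT livers differed by 0.22 in S 1 to 6, by 1.72 in S 7 to 12 and by 0.01 in S 13 to 20, and in that last range the RKO livers exceeded the single WT liver by 0.90. The summed level of 11 Kupffer cell and macrophage markers, 8 of them over log2 4 on all arrays, ranged from 12.7 to 13.3 in MRKO, 12.3 to 13.4 in RKO, 10.8 to 13.2 in MKO and 12.6 to 13.4 in WT livers. It correlated with Btg2 at 0.49 within groups (n = 19 arrays). The summed level of 8 T and NK cell markers, none of them over log2 4 on any array, correlated with Btg2 more strongly, at 0.69. The part of these markers in the Btg2 values was not tested.

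Cdkn1a had a wide spread in every genotype but MRKO. Its level was 8.29, 7.77, 7.83 and 7.99 in MRKO livers. The RKO livers had a lowest level of 6.95, a median of 8.21 and a highest of 9.86. It was 6.76, 7.96, 7.93 and 8.38 in MKO livers and 8.20, 8.30, 6.65, 7.33 and 7.58 in WT livers. RKO held the highest array, RKO 4, and also one of the lowest. The difference of RKO from WT was 0.66 ± 0.41 (SE; adjusted p = 0.351, limma), with a 95% interval from -0.19 to 1.52. For Cdkn1a this difference was 0.35 without RKO 4, 0.42 without WT 3 and 0.34 with S range entered as a block. A second probe set, with a correlation of 0.78, was over log2 4 on only 5 arrays, RKO 1 to RKO 5. It averaged 4.47 in RKO, 3.66 in MRKO, 3.54 in MKO and 3.55 in WT livers. It thus exceeded the filter only in the group where it was high.

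Mdm2 encodes the ubiquitin ligase that degrades p53 and is itself a p53 target. It averaged 6.34 ± 0.17 in MRKO livers (SD, n = 4), 6.05 ± 0.19 in RKO livers (n = 6), 6.22 ± 0.10 in MKO livers (n = 4) and 6.19 ± 0.44 in WT livers (n = 5). MRKO exceeded RKO by 0.29 ± 0.17 (SE; adjusted p = 0.311, limma) with overlapping groups, and by 0.50 with S range entered as a block (adjusted p = 0.396, limma). Its second probe set, whose levels correlated with the first at 0.68, gave a larger difference of 0.57, which passed the test (adjusted p = 0.0456, limma): the MRKO livers lay between 4.88 and 5.24 and the RKO livers between 4.46 and 4.66. Those values are close to the filter of log2 4, and no S range holds both genotypes.

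Trp53inp1, a p53-induced nuclear protein that also acts in autophagy, was low in the RKO livers apart from RKO 4. Its level was 12.20, 12.59, 12.38 and 12.45 in MRKO livers. The RKO livers had 11.80, 11.68, 12.03, 12.82, 11.78 and 11.91. It was 12.05, 12.14, 11.91 and 12.42 in MKO livers and 12.67, 12.51, 12.56, 12.00 and 12.24 in WT livers. RKO 4 was the highest of the 19 arrays, while the other 5 RKO arrays were at or below 12.03, so RKO overlapped MRKO through that array only. The difference was -0.39 ± 0.18 (SE) for RKO against WT (adjusted p = 0.208, limma) and 0.40 ± 0.19 for MRKO against RKO (adjusted p = 0.219, limma). In S 13 to 20 RKO differed from the single WT liver by -0.23. The interaction was 0.67 ± 0.27 (adjusted p = 0.137, limma). Without RKO 4 it was 0.83 and passed the test (adjusted p = 0.0442, limma), as it did with array weights (0.82, adjusted p = 0.0291, limma). A second probe set, with a correlation of 0.81, gave 0.86 for the interaction (adjusted p = 0.331, limma) and 0.77 for MRKO against RKO (adjusted p = 0.256, limma).

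Plk2 and Plk3 encode stress-responsive Polo-like kinases. Plk2 was over log2 4 on only 5 of the 19 arrays, with levels from 2.71 to 4.95 in MRKO, 2.36 to 3.77 in RKO, 3.37 to 4.27 in MKO and 3.39 to 4.42 in WT livers, so most of its values lay below the filter. Its largest difference, -0.61 ± 0.35 (SE) for RKO against WT, did not pass the test (adjusted p = 0.325, limma), and was -0.13 with values under log2 4 set to 4. Plk3 averaged 11.06 ± 0.48 in MRKO livers (SD, n = 4), 10.53 ± 0.80 in RKO livers (n = 6), 10.84 ± 0.40 in MKO livers (n = 4) and 10.87 ± 0.29 in WT livers (n = 5). RKO 1, at 9.04, was its lowest array. Its differences from WT lay between -0.34 and 0.19, with 95% intervals within -1.001 and 0.91. Both ends rested on single arrays: Plk3 in RKO differed from WT by -0.05 without RKO 1, and in MRKO by -0.05 without MRKO 1.

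**Figure D2:**
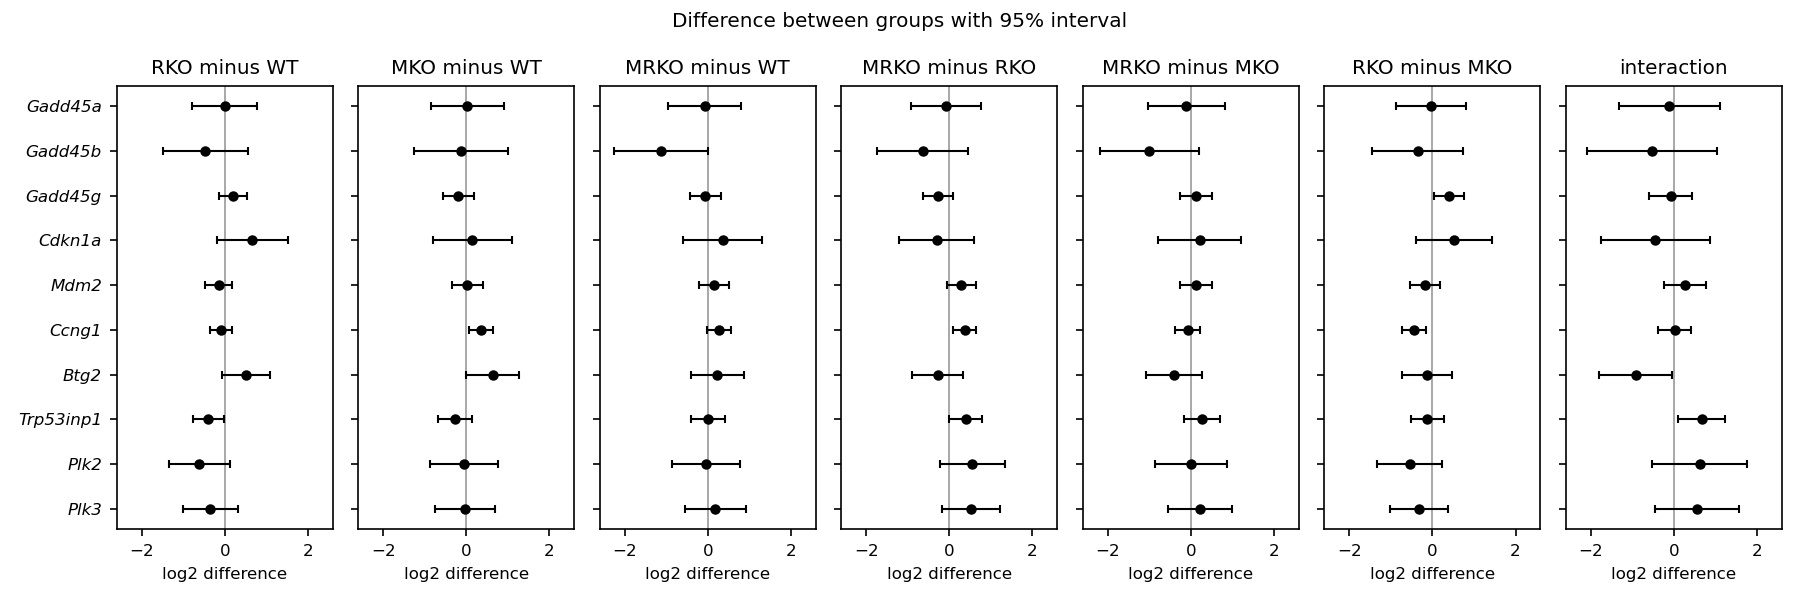
Log2 difference (horizontal axis) of each of the 10 genes in each comparison, with its 95% interval from the fit over all groups. Most intervals cross 0, and those that do not, such as Ccng1 in RKO minus MKO, did not pass the test after adjustment over all genes.

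Several of the genes differed more between livers of the same genotype than most genes did. The SD within groups was 0.88 for Gadd45b, larger than that of 99.2% of the tested genes, 0.73 for Cdkn1a (97.8%) and 0.67 for Gadd45a (97.1%). Plk2, Plk3 and Btg2 followed with 0.63 (96.2%), 0.56 (93.9%) and 0.48 (89.9%). Plk2 was over log2 4 on only 5 arrays, so its spread is mostly of values below the filter. Trp53inp1, Gadd45g, Mdm2 and Ccng1 had 0.30, 0.27, 0.27 and 0.20, near or below the median of all tested genes, 0.27. WT 3 was the lowest of the 19 arrays for Gadd45a, Cdkn1a and Btg2, and RKO 4 was the highest for Gadd45a, Cdkn1a, Gadd45g and Trp53inp1.

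**Figure D3:**
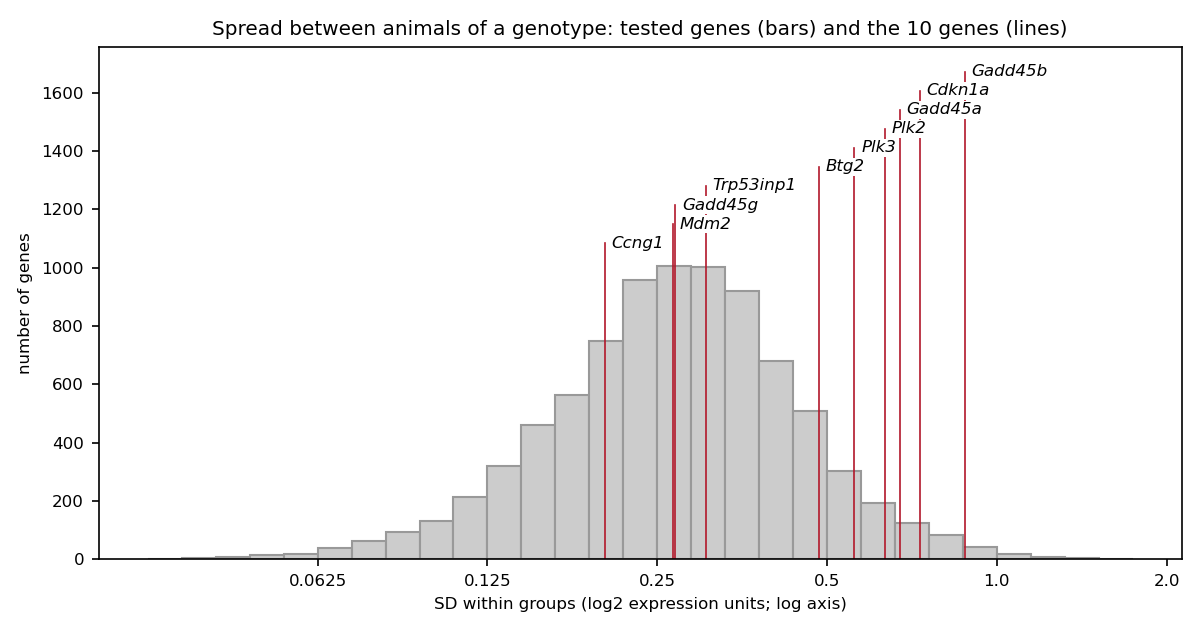
Number of tested genes (vertical axis) by SD within groups (horizontal axis, log scale), with the 10 genes marked by lines. Gadd45b, Cdkn1a and Gadd45a lie in the upper tail and Ccng1 below the peak.

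With group means subtracted, 6 of the 45 pairs of members had a correlation over 0.4 across the 19 arrays, none was under -0.4, and the median was 0.05. Gadd45a and Btg2 had the highest, with r = 0.69 and Spearman's rho = 0.62, and 0.61 without WT 3 and RKO 4, the arrays farthest from the median of Gadd45a. Within S ranges r was computed on the levels, without subtraction of group means, so it also holds differences between genotypes. For Gadd45a and Btg2 it was 0.37 in S 1 to 6, 0.88 in S 7 to 12 and 0.43 in S 13 to 20. Gadd45a and Cdkn1a had r = 0.64 and rho = 0.45, but 0.36 without the same 2 arrays, so this relation rested largely on them. Gadd45a and Trp53inp1 had r = 0.49, and 0.53 without those arrays. Their levels, group means not subtracted, had r = -0.59 within S 7 to 12. Cdkn1a with Trp53inp1 and Gadd45b with Mdm2, at 0.51 and 0.48, dropped to 0.18 and 0.16 without their farthest arrays. Gadd45b and Cdkn1a had 0.42, and 0.47 without theirs. Arrays can share RNA handling and scaling, which subtraction of group means does not remove, and the correlations are given as descriptions.

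**Figure D4:**
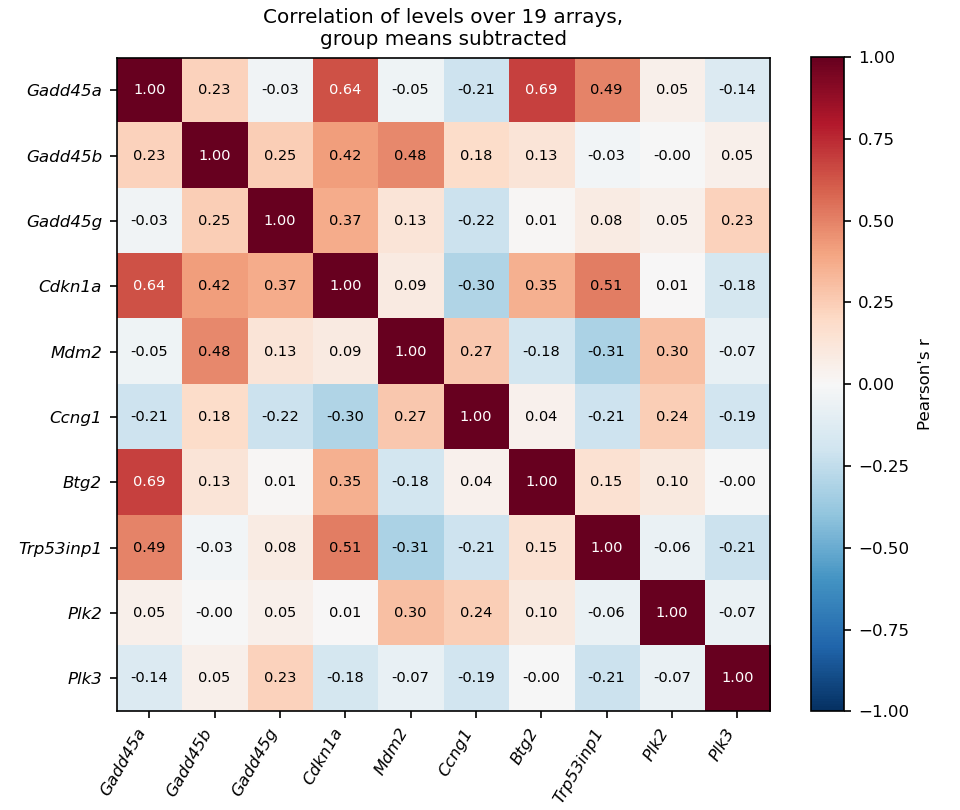
Pearson's r between each pair of the 10 genes over the 19 arrays after subtraction of group means (colour and printed value). The pairs of Gadd45a with Btg2 and with Cdkn1a have the highest values, 0.69 and 0.64.

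**Figure D5:**
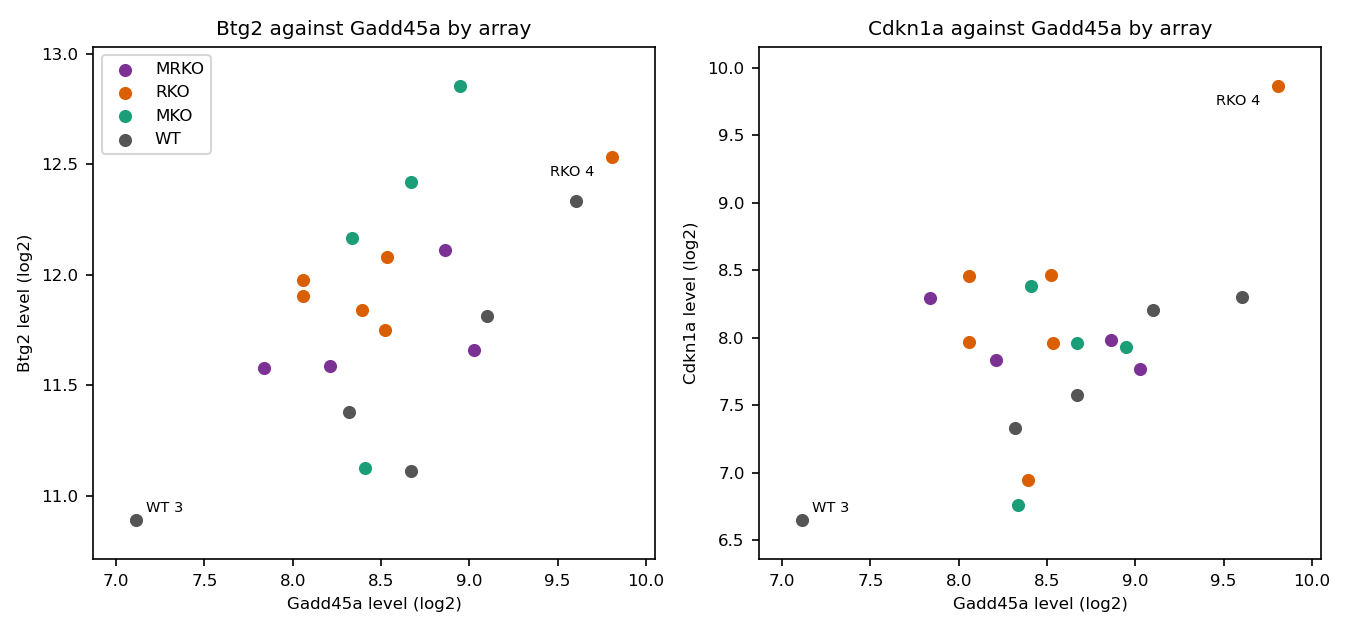
Level of Btg2 (left) and Cdkn1a (right) against that of Gadd45a, one point per array, coloured by group, in log2 units. WT 3 and RKO 4 lie at opposite ends of the Gadd45a axis in both panels.

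For the 4 members with the largest F statistic, the 3 tested genes whose levels followed theirs most closely over the 19 arrays were noted. Their r is of levels, with genotype means included. They were picked as the highest of all tested genes, so high values follow partly from the choice. For Btg2 they were Bhlhe40 (r = 0.80), Atf3 (r = 0.76) and Denn2b (r = 0.71), of which Atf3 is a stress-induced transcription factor and Bhlhe40 a transcriptional repressor. For Ccng1 they were Blvrb (r = 0.81), Plekhb1 (r = 0.78) and Tdp2 (r = 0.77), and for Gadd45g they were Saraf (r = 0.78), Igfbp1 (r = 0.77) and Polr1a (r = 0.76). For Trp53inp1 they were Acsl3 (r = 0.77), Pgam5 (r = 0.73) and Ackr3 (r = 0.72). With group means subtracted, r in the same order was 0.80, 0.73 and 0.61 for Btg2 and 0.64, 0.53 and 0.58 for Ccng1. It was 0.73, 0.69 and 0.86 for Gadd45g and 0.73, 0.71 and 0.61 for Trp53inp1.

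Other genes of the same pathways were taken from 8 lists with 108 genes, 73 of which were tested; the 3 further Polo-like kinases listed did not reach the filter. None of the 73 was called in RKO, MKO or MRKO against WT or in MRKO against MKO. In MRKO against RKO 1 was called higher and 3 lower, 5.48% of the 73 beside 2.44% of all genes. They were Gadd45gip1, a binding partner of the GADD45 proteins (0.51 ± 0.12, SE, adjusted p = 0.0456, limma), and, lower in MRKO, the DNA damage kinase Atr (-0.68 ± 0.17, adjusted p = 0.0465, limma), the p38 kinase gene Mapk14 (-0.54 ± 0.14, adjusted p = 0.0466, limma) and the autophagy gene Trp53inp2 (-0.67 ± 0.15, adjusted p = 0.0298, limma). For the interaction 1 was called higher, the polyamine catabolism gene Sat1 (0.87 ± 0.21), and 4 lower, Atr (-1.12 ± 0.24), Mdm4 (-0.87 ± 0.22), Mapk14 (-0.89 ± 0.20) and Trp53inp2 (-0.91 ± 0.21), 6.85% beside 2.41% of all genes, with adjusted p between 0.0347 and 0.0472 (limma). All of these lost the call when S range was entered as a block, with adjusted p from 0.257 to 0.640 (limma). With that block the interaction had 0 calls over all 8515 genes, against 205 without it. The lost interaction calls are therefore not particular to these genes. No S range holds both MRKO and RKO, so the block compared them through the WT and MKO arrays, 1 of each in S 13 to 20. In that fit the interaction was 0.69 for Sat1, -0.74 for Atr, -0.76 for Mapk14, -0.62 for Trp53inp2 and -0.44 for Mdm4. MRKO against RKO was then -0.29 for Atr, -0.41 for Mapk14, -0.39 for Trp53inp2 and 0.39 for Gadd45gip1. Some differences were smaller still under other alternatives. The interaction came to -0.40 for Mapk14 and -0.41 for Trp53inp2, and MRKO against RKO to -0.32 for Trp53inp2 and 0.25 for Gadd45gip1. When single arrays were left out in turn, each call was also lost for at least 6 of them. Mapk14 lies on chromosome 17 with Ager and Atr on chromosome 9 with Myd88, with 134 and 282 annotated protein-coding genes between them and the deleted gene.

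Ddit4, a stress-induced inhibitor of mTORC1 and a p53 target, was the only list gene called in RKO against MKO, 1.37% of the 73 beside 1.26% of all genes. Its level was 9.43, 10.01, 9.70 and 9.41 in MRKO livers. The RKO livers had 11.50, 11.79, 11.65, 12.26, 12.01 and 10.83. It was 8.04, 9.11, 10.50 and 7.73 in MKO livers and 9.93, 8.52, 11.62, 10.92 and 8.80 in WT livers. Every RKO liver was above every MKO liver, while WT livers spanned both. Ddit4 was 2.83 ± 0.55 higher in RKO than in MKO livers (SE, log2, adjusted p = 0.0185, limma). With S range entered as a block it was 3.85 higher (adjusted p = 8.76e-04, limma). The RKO arrays share an S range with only 1 MKO array, MKO 4, which had the lowest Ddit4 level, 7.73. Without MKO 4 the difference was 2.46 and no longer passed (adjusted p = 0.0716, limma). Against WT, Ddit4 in RKO livers was 1.72 ± 0.52 higher (adjusted p = 0.0834, limma). Chek1, which encodes a DNA damage checkpoint kinase, differed by -1.50 ± 0.39 between RKO and WT livers (adjusted p = 0.0583, limma). Neither difference passed the test. Chek1 averaged 4.12 in MRKO, 3.63 in RKO, 3.92 in MKO and 5.13 in WT livers. Its RKO and MKO means were thus under the filter of log2 4. Its mean was below that of WT in every deletion genotype, not in RKO alone. The lists held other p53 targets, and in none of the 7 comparisons did more than 1 member of the apoptosis or of the repair, redox and metabolism list pass the test.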

How the data were processed

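Liver RNA of 19 mice was hybridised to Affymetrix mouse arrays, 1 array per sample. The deposited values were log2 levels per probe set that the authors had made with GCRMA 2.16, per the submitters' processing notes; GCRMA corrects background by probe sequence and quantile-normalises. The number of arrays limits the precision. Of 45101 probe sets, 34945 had a single gene symbol, 932 several and 9160 none. Per gene the probe set with the highest mean was kept, genes over log2 4 on at least 4 arrays were tested, and the 4 groups were fitted in 1 model with limma 3.58.1 in R 4.3.3, with Benjamini-Hochberg adjustment over 8515 genes and a threshold of 0.05. The fit was tested on simulated data. All 10 members were named, with the list genes called, the deleted genes and, from each list, genes with the smallest p. The members and lists were chosen with earlier results of these data known. The extraction text speaks of RNA per mouse but the labels give no animal identifiers, so p-values measure the spread between these samples. Whether the replicate numbers of the titles pair the samples was not settled, and the main fit used no pairing. Scaling, filter, probe set, S range, replicate block, array weights and leaving out each array were tried as alternatives.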

Additional observations from a re-analysis of the deposited data

Results flagged for a closer look

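In each of the 40 sets of one gene in one group, the highest and lowest array were compared with the rest by Dixon's gap at the 95% level, which chance passes in about 1 of 20 sets. It was passed in 4. Gadd45a had a level of 9.81 in RKO 4, where the next RKO liver had 8.53. Trp53inp1 had 12.8 in the same liver, where the next had 12.03. Btg2 had 12.1 in MRKO 4, where the next MRKO liver had 11.66. Ccng1 had 8.64 in WT 5, where the next WT liver had 8.51.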

How the results depend on the processing

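The 70 differences of the 10 genes were refitted under 39 settings, 2076 values in all, of which 5 passed the threshold. With array weights 1 member was called in RKO minus MKO (Ccng1), 1 in the interaction (Trp53inp1) and 1 over any group. With the replicate block 1 member was called in RKO minus MKO (Ccng1, -0.56, adjusted p = 0.0436, limma); the block changed no other call of a member, and under it all list genes called lost the call except Ddit4. Mdm2 passed in MRKO minus RKO with its second probe set. Of 25 pairs of arrays with the same replicate number, 9 had a correlation of deviations over 0.1, and the median was 0.05. Pairs with different numbers were not computed for comparison, so this does not settle whether the numbers pair the samples. Leaving out single arrays gave 0 to 1 members called in the interaction, the 1 being Trp53inp1 without RKO 4, and 0 in the other comparisons. Of the 2076 values, 111 changed sign, 6 of them where the difference was over 0.3. Among the differences described, Ccng1 in MKO minus WT was -0.092 with one of its other probe sets and Mdm2 in MRKO minus RKO was -0.0032 with a further probe set that was under the filter on every array; the cause was not tested. Counts over all genes moved more. RKO minus WT had 107 calls, against 43 without the filter, 59 with the S range as a block, 711 with array weights and 33 with only the groups compared. MKO minus WT had 34, against 11 quantile-normalised again, 71 median-centred, 86 with the S range, 785 with weights and 7 with only the groups compared. MRKO minus WT had 27, against 42 with weights and 46 with the replicate block. MRKO minus RKO had 208, against 91 without the filter, 120 with the S range, 138 with the replicate block and 619 with weights. MRKO minus MKO had 13, against 5, 3 and 293 with the S range, the replicate block and weights, and 4 with only the groups compared. RKO minus MKO had 107, against 386 with the S range, 461 with weights and 28 with only the groups compared. The interaction had 205, against 76 without the filter, 37 with the replicate block, 0 with the S range and 1382 with weights, and any group had 204, against 1468 with weights. Leaving out single arrays gave 16 (without WT 5) to 403 (without MKO 1) calls in RKO minus WT. It gave 10 (MKO 4) to 987 (MKO 1) in MKO minus WT and 18 (MRKO 3) to 368 (MKO 1) in MRKO minus RKO. In MRKO minus MKO it gave 2 (MKO 4 or MRKO 3) to 446 (MKO 1), and in RKO minus MKO 30 (MKO 4) to 179 (RKO 6). The interaction had 0 calls without MKO 3, without MKO 4 or without MRKO 3, and up to 1739 without MKO 1. Quantile normalisation moved the split of higher to lower calls to 53 and 44 in RKO minus WT (71 and 36), 4 and 7 in MKO minus WT (27 and 7), 38 and 52 in RKO minus MKO (31 and 76) and 88 and 139 in the interaction (49 and 156). Entering S range as a block made it 20 and 39 in RKO minus WT, more lower than higher, and 100 and 20 in MRKO minus RKO (136 and 72). Signal limits Plk2, over the filter on 5 arrays. It also limits the second probe sets of Mdm2 and Cdkn1a and the list genes Atr, Mdm4 and Chek1, which lay near the filter.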
